A study of Rattus norvegicus with 12 samples.

Results

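The Rab GTPases and the numbered TBC domain genes were taken from the arrays by gene name, as every noncontrol probe whose name in the files begins with Rab or Tbc1d and a number. This gave 83 genes (62 with a Rab name and 21 with a Tbc1d name) on 106 probes, of 26541 named genes on the array. Of these, 68 genes had a probe with signals well above background on 6 or more of the 12 arrays and were tested, among 17417 genes tested in all. The brightest tested probe stands for its gene. Names beginning with Rab also brought in regulators and effectors (Rab3il1, Rab3ip, Rab3gap2 and the Rab11fip genes), which are described apart from the GTPases.

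The arrays measured epididymal adipocytes of male Fisher 344 rats, and each group held 6 rats with 1 array per rat. The CUS rats went through 35 days of chronic unpredictable stress with 2 stressors per day, drawn at random from swimming, rotation, isolation, crowding, wet bedding, changed lighting, stroboscope light and overnight food and water deprivation. Control rats were handled every 2 days for weighing. The labels name adipocytes as the cell type and preadipocytes in the extraction text, so the fraction measured is not settled by them.

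Rab proteins are small GTPases that mark membranes and recruit the machinery for budding, transport and fusion. Exchange factors, many with a DENN domain, load them with GTP, and TBC domain proteins speed GTP hydrolysis and turn them off. In adipocytes, insulin acts through a TBC protein to release Rab10 and related GTPases, and vesicles that store the glucose transporter GLUT4 then move to the cell surface. Transcript levels were measured here, so neither the GTP-bound share of a Rab nor its place in the cell was observed.

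A level below is the log2 intensity of a probe minus the log2 of the 75th percentile of its array, and a difference is CUS minus control on that scale, with its SE. A gene is said to have risen or fallen where its adjusted p from limma was below 0.05, after the Benjamini-Hochberg procedure across every tested probe. The 75th percentile was an intensity of 541.3 to 626.8 on CUS arrays and of 229.8 to 399.7 on control arrays. The 8 spike-in probes, added in equal amounts, differed by -0.05 before scaling, and scaling on them in place of the 75th percentile put the median gene at 0.80. On that scale 53 members were higher and 0 lower, where 63.8% of all genes were higher and 2.52% lower, and 4 of the 7 falls given below (Rab11fip4, Rab24, Rab6a and Tbc1d1) turned to rises that did not pass. Directions given here are therefore relative to the other genes on the array. The CUS arrays shared 1 slide and the control arrays another, and slide and stress cannot be told apart. Control replicate 3 had the dimmest array and was the highest or lowest of its group for 64.7% of the 68 members (67.9% of all tested genes).

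Other cells also differed between the groups. All 6 tested red blood cell markers were higher, with a summed linear level of 1720 to 2346 in CUS against 49.98 to 142.5 in control, and so were 8 of 9 mast cell markers, with sums of 2.24 to 5.83 in CUS against 0.358 to 0.537 in control. Of the smooth muscle markers 6 of 7 were lower (sums of 6.76 to 16.6 in CUS and 6.73 to 53.9 in control), and of the endothelial markers 6 of 10 (sums of 21.6 to 43.5 in CUS and 21.1 to 93.3 in control). Of the mesothelial markers 4 of 6 were higher (sums of 8.60 to 14.0 in CUS and 2.17 to 11.6 in control). Of the macrophage markers 4 of 10 were higher and 1 lower (sums of 92.6 to 188.6 in CUS and 96.1 to 207.7 in control), and of the neuronal and Schwann cell markers 2 of 7 were higher and 4 lower (sums of 76.5 to 111 in CUS and 46.1 to 107.7 in control). Adipocyte markers were bright in both groups, with sums of 1400 to 1684 in CUS and 1342 to 2617 in control, and 3 of 9 rose and 2 fell. The part of these cells in the Rab and TBC values below was not tested, and fewer cells of a type cannot be told apart from less RNA per cell.

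Chronic stress was accompanied by more rises than falls among the 68 tested members. A rise was called for 17 members (25.0%, where 24.1% of all tested genes rose) and a fall for 7 (10.3%, where 25.9% of all tested genes fell), while 44 did not pass. The share that rose was thus close to that of all genes and the share that fell was lower, and no test of this difference was made. The median difference was 0.06 over the members and -0.03 over all tested genes. At a fold of at least 2, 2 members were higher (2.94%, against 3.18% of all genes) and 3 were lower (4.41%, against 8.8% of all genes). The 6 CUS and 6 control values did not overlap for 8 members (11.8%, against 22% of all genes). With normexp background correction 18 members were higher and 20 lower, where 22.9% of all genes were higher and 43.9% lower. Without control replicate 3, 22 members were higher and 11 lower, where 29.1% of all genes were higher and 30.5% lower, and all 24 calls were kept in their direction. The calls gained were Rab18, Rab2b, Rab34, Rab3b and Rab7a as higher, and Rab13, Rab15, Rab6b and Tbc1d22b as lower. Without control replicate 1, 2 members passed at a fold of 2 in place of 5. Rises and falls were both present in 6 of the 7 role groups, as the plot of differences by role shows.

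**Figure D1:**
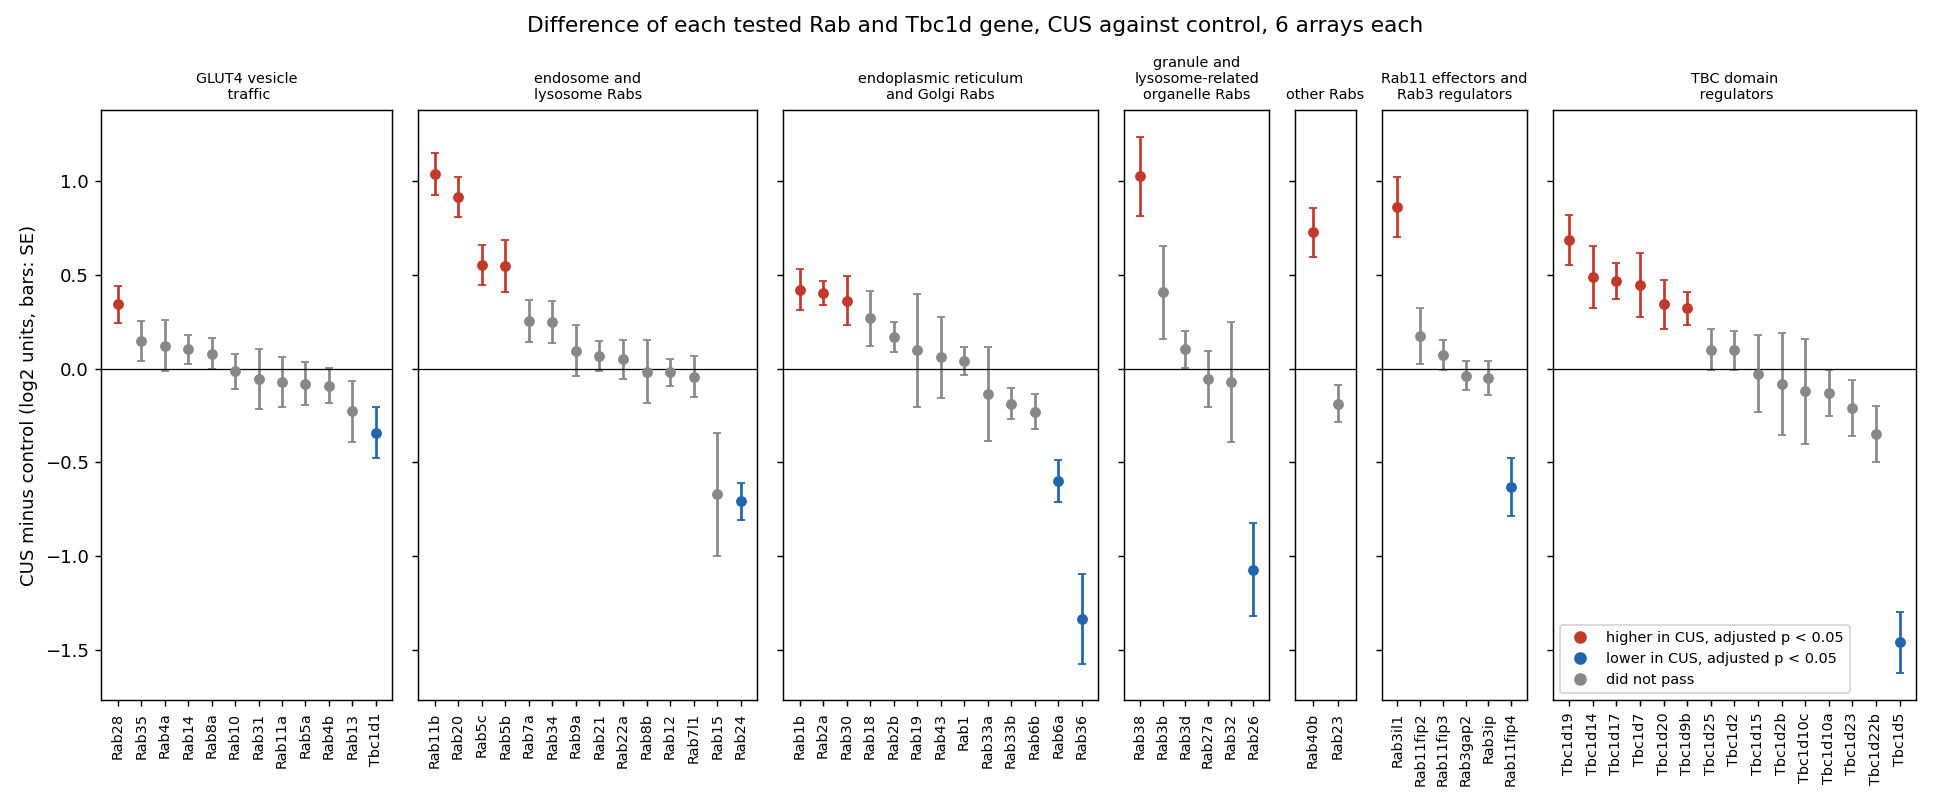
Difference between CUS and control (log2 units, vertical axis) for each of the 68 tested members, grouped by the role of the protein, with the SE of the fit as bars. The 17 members in red rose and the 7 in blue fell, and in the GLUT4 panel 10 of 12 genes are grey and lie near 0.

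Of the 13 genes of GLUT4 vesicle traffic, 12 were tested, with 1 rise (Rab28), 1 fall (Tbc1d1), 10 that did not pass and a median difference of -0.04. Over all tested genes 24.1% rose and 25.9% fell. The group does not hold every TBC protein of this route, and others were not analysed here. On the 75th percentile scale the 95% confidence interval of the difference lay within a fold of 2 in either direction for all 12, the lowest bound being -0.63 and the highest 0.55. With spike-in scaling the median was 0.79, 10 of the 12 passed as higher (where 63.8% of all genes did) and Rab28 was higher by 1.17. On the 75th percentile scale no gene of this group separated the 6 CUS arrays from the 6 control arrays.

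Rab10, the GTPase that insulin engages to bring GLUT4 to the surface of adipocytes, had levels of 1.55 to 1.96 (median 1.87) in CUS and of 1.71 to 1.97 (median 1.81) in control. The groups overlapped almost fully, and the difference was -0.01 ± 0.09 (interval -0.22 to 0.19, adjusted p = 0.90). Rab8a and Rab13, its close relatives with a known part in GLUT4 transport in muscle cells, were not called either. Rab8a lay between 1.82 and 2.12 (median 1.92) in CUS and between 1.67 and 2.06 (median 1.88) in control, a difference of 0.08 ± 0.08. Rab13 lay between -0.83 and -0.35 (median -0.61) in CUS and between -1.01 and 0.02 (median -0.28) in control, a difference of -0.23 ± 0.16 (adjusted p = 0.25). The lowest control value of Rab13 was that of control replicate 3, and without this array Rab13 was lower by -0.36 (adjusted p = 0.019).

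The endosomal Rabs of this group likewise gave overlapping values. Rab14, which sorts GLUT4 through endosomes, differed by 0.10 ± 0.08, and Rab4a, which recycles cargo from early endosomes, by 0.12 ± 0.13. Its paralog Rab4b differed by -0.09 ± 0.09, and Rab11a, the recycling endosome Rab, by -0.07 ± 0.13. Rab5a, of early endosomes, differed by -0.08 ± 0.11, Rab31, known to hold GLUT4 inside adipocytes, by -0.06 ± 0.16 and Rab35, a target of Tbc1d13, by 0.15 ± 0.11. Their adjusted p lay between 0.26 and 0.78, which does not show that their levels were equal. For Tbc1d13 no array gave a signal well above background.

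Tbc1d1, a Rab GTPase-activating protein that AKT and AMPK phosphorylate, had levels of 1.498 to 1.847 (median 1.68) in CUS and of 1.45 to 2.26 (median 2.10) in control. Of the 6 control arrays 5 lay above every CUS array, and control replicate 3 lay below all of them. Tbc1d1 fell by 0.34 ± 0.13 (1.27-fold, adjusted p = 0.049). The call stands at the threshold, since it was lost on leaving out any 1 of 10 arrays, with adjusted p up to 0.10, while without control replicate 3 the difference was -0.45 (adjusted p = 0.0015). Rab28, the one member of the group that rose, lay between 3.57 and 3.82 (median 3.78) in CUS and between 3.28 and 3.78 (median 3.34) in control. It rose by 0.34 ± 0.10 (1.27-fold, adjusted p = 0.011), and 1 control array, again replicate 3, reached the CUS values. With quantile normalization the rise of Rab28 was 0.21 (adjusted p = 0.0501).

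**Figure D2:**
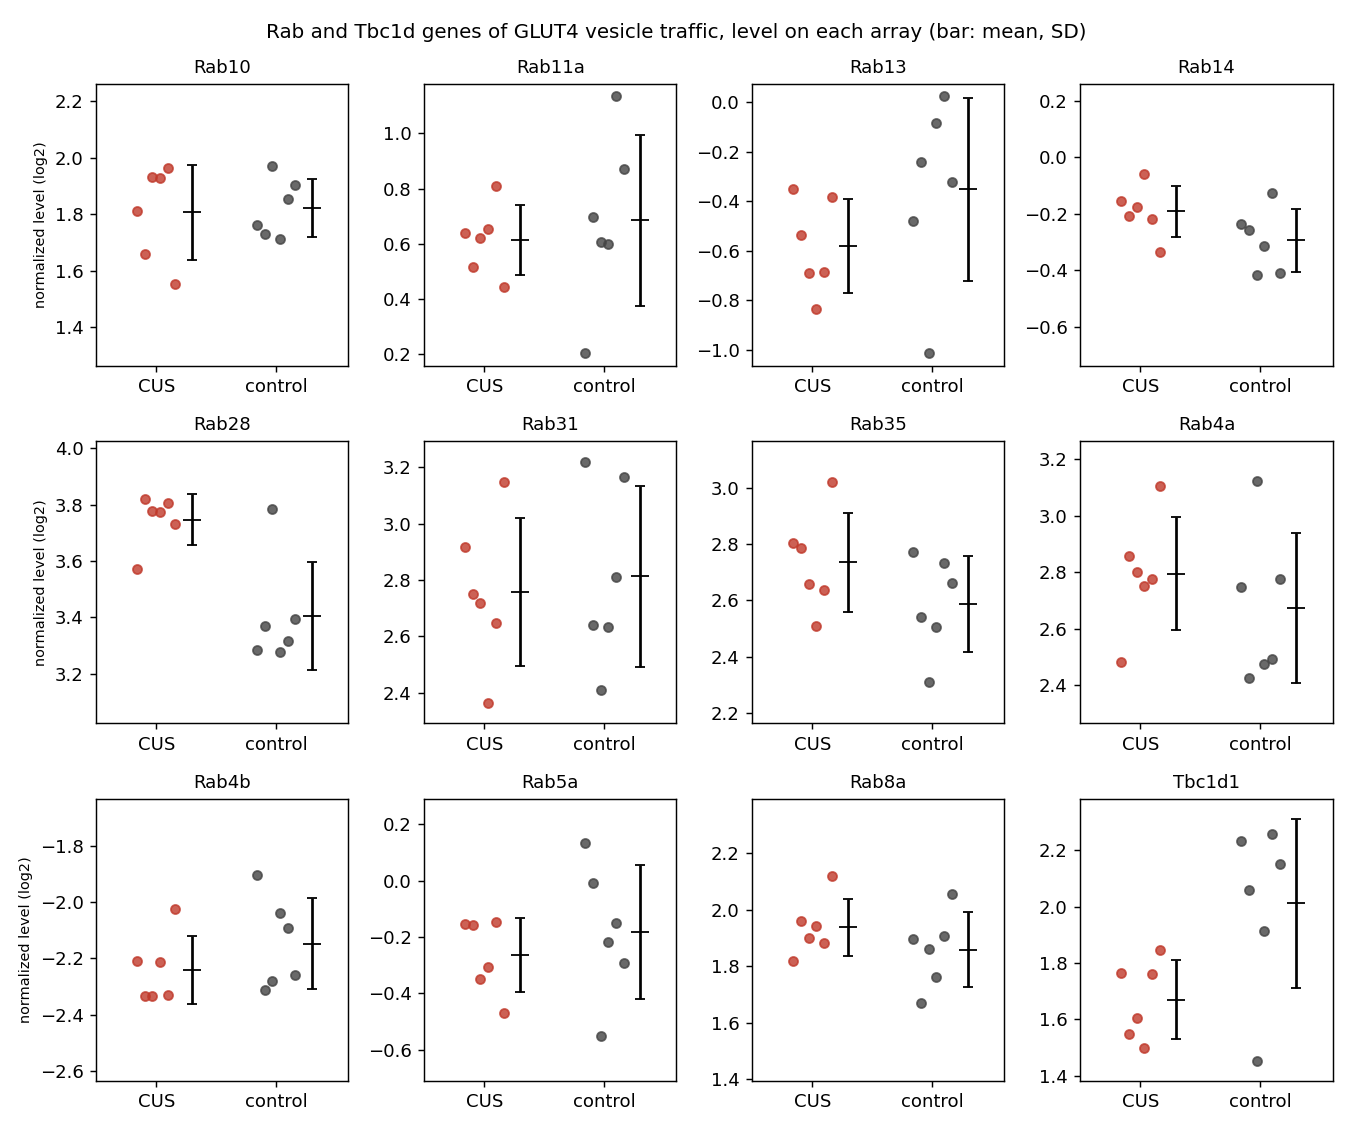
Normalized level (log2, vertical axis) of the 12 tested genes of GLUT4 vesicle traffic on each CUS array (left) and control array (right), with the mean and SD of 6 arrays as bars. CUS and control values overlap in every panel, and Rab28 and Tbc1d1 each have 1 control array, replicate 3, away from the other 5.

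Among Rabs of endosomes and lysosomes 14 of 17 were tested, 4 rose and 1 fell, where 24.1% of all genes rose and 25.9% fell. Rab11b, of recycling endosomes and a close relative of Rab11a, had levels of -1.05 to -0.73 (median -0.94) in CUS and of -2.29 to -1.73 (median -1.85) in control. Every CUS array lay above every control array, and the rise was 1.04 ± 0.11 (2.05-fold, adjusted p = 2.6e-05), the largest rise among the tested members. With normexp the rise was 0.63 (adjusted p = 3.7e-05). Rab11a differed by -0.07 ± 0.13, and the 2 were not tested against each other. Rab20, which acts in the maturation of endosomes and phagosomes, lay between 0.04 and 0.49 (median 0.26) in CUS and between -0.94 and -0.45 (median -0.64) in control. It rose by 0.92 ± 0.11 (1.89-fold, adjusted p = 4.9e-05) with no overlap, and its other probe rose by 1.20.

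The Rab5 isoforms, which share the early endosome, did not all receive the same call. Rab5c lay between -0.31 and 0.10 (median -0.14) in CUS and between -0.90 and -0.32 (median -0.68) in control, and rose by 0.55 ± 0.11 (adjusted p = 0.0013) with the groups just apart. Rab5b lay between 1.33 and 1.73 (median 1.54) in CUS and between 0.45 and 1.45 (median 1.03) in control, and rose by 0.55 ± 0.14 (adjusted p = 0.0068). Its other probe rose by 0.63. For Rab5a the brightest probe differed by -0.08 and the other by 0.45 (adjusted p = 0.11), and neither passed.

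Rab24, an atypical Rab with a part in autophagy, was the one member of the endosome and lysosome group that fell. Its levels were 0.46 to 0.86 (median 0.74) in CUS and 1.26 to 1.72 (median 1.37) in control, with a gap between the groups, and it fell by 0.71 ± 0.10 (1.63-fold, adjusted p = 0.00018). Rab7a, of late endosomes and lysosomes, differed by 0.25 ± 0.11 and did not pass (adjusted p = 0.077). Without control replicate 3 Rab7a was higher by 0.32 (adjusted p = 0.020), and with normexp by 0.27 (adjusted p = 0.024). The remaining 8 members of the group, Rab8b, Rab9a, Rab12, Rab15, Rab21, Rab22a, Rab34 and Rab7l1 (now Rab29), did not pass, with differences between -0.67 and 0.25.

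The probes of the members show what was measured. They are 60 bases long, and 5 of them from members without overlap are printed here because their position or their last bases tie them to a spliced or a finished message. Those of Rab11b (rn4 chr7:16233727-16234468, minus strand), Rab5c (chr10:89653453-89653946, minus strand) and Tbc1d5 (chr9:4418366-4418528, plus strand) cover 742, 494 and 163 bases of genome, so that each joins stretches that are apart in the genome, as spliced exons are. The Tbc1d5 probe shown is not the brightest, which stands for the gene. Those of Rab20 (its other probe, chr16:82894490-82894549) and Rab24 (chr17:15354962-15355021), both on the plus strand, end with a stop codon. Capitals mark 2 adjacent cysteine codons (each TGT or TGC) at most 2 codons before that stop in an open frame, where the lipid anchor of many Rab proteins is added. Whether Rab20 and Rab24 carried it was not measured. Only 12 of the 19727 tested probes (0.0608%) end this way, and the 2 among members are these.
Rab11b: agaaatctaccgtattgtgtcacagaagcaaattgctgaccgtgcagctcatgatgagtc
Rab5c: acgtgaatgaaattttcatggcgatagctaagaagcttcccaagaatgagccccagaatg
Tbc1d5: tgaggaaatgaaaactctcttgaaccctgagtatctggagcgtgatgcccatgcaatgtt
Rab20: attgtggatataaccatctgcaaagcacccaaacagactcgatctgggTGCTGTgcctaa
Rab24: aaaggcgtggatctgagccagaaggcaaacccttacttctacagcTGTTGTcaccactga

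**Figure D3:**
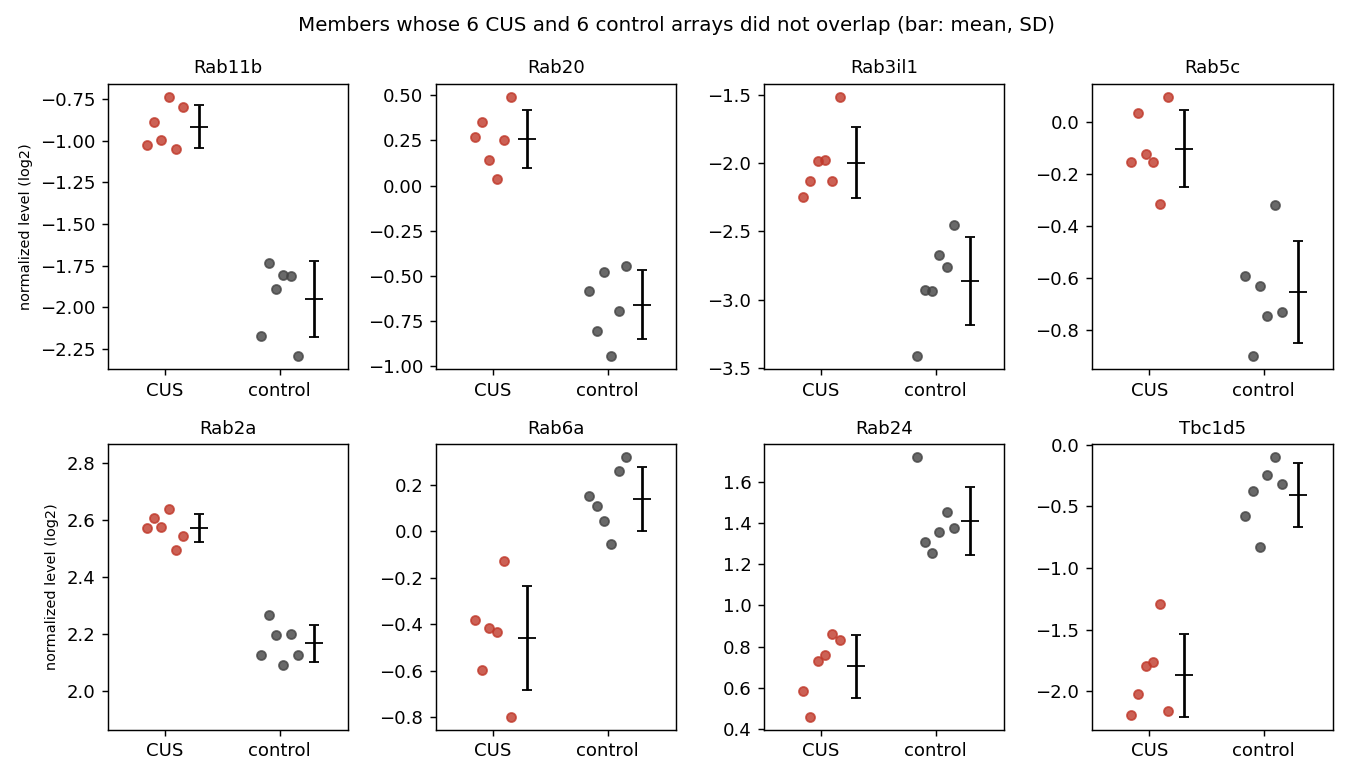
Normalized level (log2, vertical axis) on each CUS array (left) and control array (right) of the 8 members without overlap, with the mean and SD of 6 arrays as bars. Rab11b, Rab20, Rab3il1, Rab5c and Rab2a lie higher in CUS, and Rab6a, Rab24 and Tbc1d5 lie lower.

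Among Rabs of the endoplasmic reticulum and the Golgi apparatus, 13 of 14 were tested, 3 rose and 2 fell. The shares over all tested genes were 24.1% and 25.9%. Rab2a, which acts between both compartments, varied little within groups. It lay between 2.496 and 2.64 (median 2.57) in CUS and between 2.09 and 2.27 (median 2.16) in control, and rose by 0.40 ± 0.07 (1.32-fold, adjusted p = 0.00042) with no overlap. Rab2b differed by 0.17 ± 0.08 and did not pass (adjusted p = 0.095). Rab1b, of early secretion, rose by 0.42 ± 0.11 (adjusted p = 0.0069), and so did its other 3 probes, by 0.40 to 0.83. The brightest probe (chrX:73109779-73109838) and the next (chrX:73109785-73109844) overlap, so they are not separate checks. The array design places all 4 Rab1b probes on the X chromosome, which is not where RefSeq has the gene, and whether they read Rab1b alone was not tested. Rab1 (now Rab1a) differed by 0.04 ± 0.07. Rab30, of the Golgi apparatus, rose by 0.36 ± 0.13 (adjusted p = 0.035), a call lost on leaving out any 1 of 6 arrays, and with normexp it passed in the other direction, at -0.21 (adjusted p = 0.029).

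Rab6a, which directs retrograde traffic at the Golgi apparatus, had levels of -0.80 to -0.13 (median -0.43) in CUS and of -0.05 to 0.32 (median 0.13) in control. It fell by 0.60 ± 0.11 (1.51-fold, adjusted p = 0.001), its groups did not overlap, and its other probe fell by 0.60 as well. Rab6b differed by -0.23 ± 0.09 (adjusted p = 0.056). Rab36 fell by 1.33 ± 0.24 (2.52-fold, adjusted p = 0.00082) close to the background, with levels of -5.95 to -5.28 (median -5.57) in CUS and of -5.33 to -3.58 (median -4.22) in control. It was well above background on only 2 of 6 CUS arrays, against 5 of 6 control arrays, so its fold rests mostly on background in CUS, and with normexp it fell by 0.79. Among the 62 members well above background on every array, 2 rose and 2 fell by a fold of at least 2. Over all 17417 tested genes, not held to that stricter filter, 3.18% rose and 8.8% fell by such a fold. Rab18, which is found on lipid droplets, lay between 3.91 and 4.50 (median 4.39) in CUS and between 3.74 and 4.57 (median 3.96) in control, and did not pass (difference 0.27 ± 0.15, adjusted p = 0.14). Without control replicate 3 Rab18 was higher by 0.37 (adjusted p = 0.019), and with normexp by 0.37 (adjusted p = 0.024).

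Of the 10 Rabs of secretory granules and lysosome-related organelles, 6 were tested. Rab38, known from melanosomes and related organelles, lay between -0.68 and -0.30 (median -0.37) in CUS and between -2.31 and -0.65 (median -1.46) in control. It rose by 1.03 ± 0.21 (2.03-fold, adjusted p = 0.0019), and the highest control array just reached the lowest CUS array. Rab26, of secretory granules, lay between -4.24 and -3.69 (median -4.14) in CUS and between -4.19 and -2.41 (median -2.84) in control, and fell by 1.07 ± 0.25 (2.10-fold, adjusted p = 0.0038). Rab3b, Rab3d, Rab27a and Rab32 did not pass, with differences between -0.07 and 0.41. The second probe of Rab32 was lower by -1.02 (adjusted p = 0.031), where its brightest differed by -0.07. Rab3a, Rab3c, Rab27b and Rab44 were too dim to test. Rab40b, which carries a SOCS box and belongs to ubiquitin ligases, lay between -0.65 and -0.12 (median -0.32) in CUS and between -1.26 and -0.59 (median -1.17) in control and rose by 0.73 ± 0.13 (adjusted p = 0.00084).

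Among the 7 effectors and regulators with Rab names, 6 were tested. Rab3il1, an exchange factor for Rab3 and Rab8 proteins, lay between -2.25 and -1.52 (median -2.06) in CUS and between -3.41 and -2.46 (median -2.84) in control. It rose by 0.86 ± 0.16 (1.82-fold, adjusted p = 0.001) with no overlap, and by 0.25 with normexp (adjusted p = 0.038). Rab3ip, the related exchange factor, differed by -0.05 ± 0.09, and Rab3gap2, a subunit of the Rab3 GTPase-activating complex, by -0.04 ± 0.08. Of the Rab11 effectors, Rab11fip4 fell by 0.63 ± 0.15 (1.55-fold, adjusted p = 0.005), with levels of -3.06 to -2.83 (median -2.97) in CUS and of -2.87 to -1.81 (median -2.41) in control. Rab11fip2 and Rab11fip3 differed by 0.17 ± 0.15 and 0.07 ± 0.08 and did not pass.

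Of the 19 TBC domain genes outside the GLUT4 group, 15 were tested, 6 rose and 1 fell. Of all tested genes 24.1% rose and 25.9% fell, and no test of the difference was made. Tbc1d5, which acts on Rab7 and binds the retromer coat, had the largest difference of the 68 tested members. It lay between -2.19 and -1.29 (median -1.91) in CUS and between -0.83 and -0.10 (median -0.35) in control, and fell by 1.46 ± 0.16 (2.75-fold, adjusted p = 3.5e-05). Every CUS array lay below every control array. The second probe, printed above and close by on the chromosome (chr9:4418366-4418528, against chr9:4420087-4420146 for the brightest), fell by 1.12 (adjusted p = 0.00018). The third (chr9:4650588-4650647) differed by 0.11 (adjusted p = 0.48), so that the fall was seen at only 2 of the 3 positions of the gene.

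Tbc1d19 rose by 0.69 ± 0.13 (adjusted p = 0.0014), with levels of -2.29 to -1.86 (median -1.98) in CUS and of -3.05 to -2.23 (median -2.74) in control. With normexp its difference was 0.19 and did not pass (adjusted p = 0.11). Tbc1d17, known to act on Rab8, rose by 0.47 ± 0.10 (adjusted p = 0.0019), and Tbc1d9b, which acts on Rab11a, by 0.32 ± 0.09 (adjusted p = 0.0088, and 0.21 with normexp). Tbc1d14, which binds Rab11 and regulates autophagy, rose by 0.49 ± 0.17 (adjusted p = 0.026), with levels of 1.35 to 2.19 (median 1.97) in CUS and of 1.09 to 1.81 (median 1.35) in control. Its second probe differed by -0.08 (adjusted p = 0.74), and the mean of both probes by 0.20 (adjusted p = 0.34). Tbc1d7, the third subunit of the tuberous sclerosis complex that restrains mTORC1, rose by 0.45 ± 0.17 (adjusted p = 0.046) and Tbc1d20, which acts on Rab1 and Rab18, by 0.34 ± 0.13 (adjusted p = 0.045). The last 3 rises were each lost on leaving out single arrays, on 6 occasions of 12 for Tbc1d14, 8 for Tbc1d7 and 9 for Tbc1d20, and with normexp Tbc1d7 was at -0.17 (adjusted p = 0.14) and Tbc1d20 at 0.06 (adjusted p = 0.63), neither of which passed.

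Several probes of a gene gave a check on these calls. Of 14 members with at least 2 tested probes, all probes had the same call in 9, of which 4 were called (Rab1b, Rab20, Rab5b and Rab6a). For Rab1b the check is limited, since its brightest probe and the next overlap and the position of its probes is in doubt. In the other 5, Rab32, Rab33b, Tbc1d2b, Tbc1d5 and Tbc1d14, some probes passed and others did not. No member had probes that passed in opposite directions. Tbc1d2b, known to bind Rab22, differed by -0.08 at its brightest probe, while the dimmer probe was higher by 0.65 (adjusted p = 0.036). Rab33b differed by -0.19 at its brightest probe and was lower by -0.51 (adjusted p = 0.018) at the dimmer one.

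**Figure D4:**
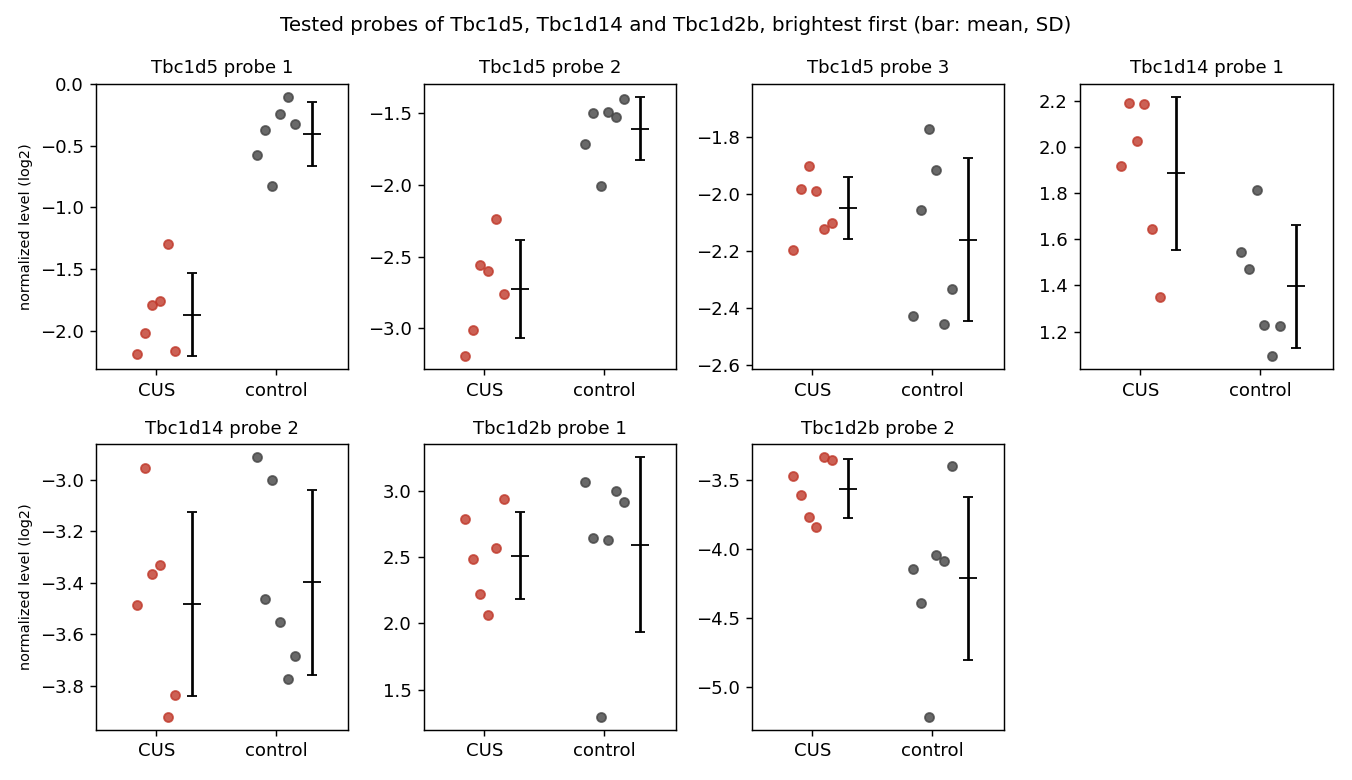
Normalized level (log2, vertical axis) of each tested probe of Tbc1d5, Tbc1d14 and Tbc1d2b on each CUS array (left) and control array (right), with the mean and SD of 6 arrays as bars. Probes 1 and 2 of Tbc1d5 lie lower in CUS without overlap, and CUS and control overlap for its probe 3.

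Among partners of GLUT4 vesicles outside the Rab and Tbc1d names, 17 genes were on the array and 16 were tested with limma. Of these 5 rose (where 24.1% of all tested genes rose) and 11 did not pass, with a median difference of 0.24. A fall was called for 0 of them (also 0 at an unadjusted p below 0.05), where 25.9% of all tested genes fell. Without control replicate 3, 8 passed, where 29.1% of all genes were higher and 30.5% lower. Sort1 (sortilin), which forms GLUT4 storage vesicles, had levels of 1.69 to 2.22 (median 2.17) in CUS and of 0.59 to 1.76 (median 1.06) in control, and rose by 0.99 ± 0.17 (1.99-fold, adjusted p = 0.00055). The lowest CUS array lay just below the highest control array. Rhoq (TC10), a small GTPase of the insulin response, lay between 1.28 and 1.67 (median 1.59) in CUS and between 0.55 and 1.19 (median 0.72) in control, and rose by 0.75 ± 0.12 (adjusted p = 0.00038) with no overlap.

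The exocyst subunit Exoc7, which binds TC10 and tethers the vesicles, lay between 0.69 and 1.11 (median 0.98) in CUS and between 0.22 and 0.48 (median 0.28) in control, and rose by 0.62 ± 0.09 (adjusted p = 0.00018). Lrp1, a receptor carried in GLUT4 vesicles, lay between 1.03 and 1.32 (median 1.18) in CUS and between 0.32 and 0.81 (median 0.60) in control, and rose by 0.59 ± 0.10 (adjusted p = 0.00054). Neither had overlapping groups. Vamp2, the vesicle SNARE, rose by 0.33 ± 0.09 (adjusted p = 0.011). GLUT4 itself (Slc2a4) lay between 1.12 and 2.16 (median 1.495) in CUS and between 0.95 and 1.69 (median 1.27) in control and did not pass (0.29 ± 0.19, adjusted p = 0.21). The target membrane SNAREs Stx4 and Snap23 and their regulator Stxbp3 differed by -0.03, 0.10 and 0.01, and Lnpep, a cargo of the same vesicles, by 0.24 ± 0.13.

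The general Rab cycle gave changes in both directions. Of 33 listed genes, among them TBC genes without a number, 31 were tested, 6 rose and 5 fell, with a median of 0.01. Both calls were less frequent than over all tested genes, of which 24.1% rose and 25.9% fell. No test of this difference was made. Grtp1, a TBC domain protein, lay between -0.87 and -0.09 (median -0.39) in CUS and between -2.02 and -1.12 (median -1.63) in control, and rose by 1.20 ± 0.17 (2.30-fold, adjusted p = 0.00019). Dennd2d, a DENN domain exchange factor, lay between 0.78 and 1.37 (median 1.02) in CUS and between -0.17 and 0.40 (median -0.05) in control, and rose by 1.04 ± 0.12 (2.06-fold, adjusted p = 5.02e-05). Neither had overlapping groups.

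Rab escort proteins present new Rabs to the enzyme that adds a lipid anchor at cysteines near the end of the protein. Both of their genes fell relative to the other genes, while with spike-in scaling Chml differed by -0.24 and Chm by 0.08 and neither passed. Chml lay between -5.52 and -4.56 (median -4.80) in CUS and between -4.29 and -3.09 (median -3.80) in control, and fell by 1.06 ± 0.21 (2.09-fold, adjusted p = 0.0015). It was well above background on 5 of 6 CUS arrays, and differed by -0.73 with normexp and by -0.67 with quantile normalization. Chm lay between 2.61 and 3.45 (median 2.87) in CUS and between 3.35 and 4.13 (median 3.63) in control, and fell by 0.75 ± 0.16 (1.68-fold, adjusted p = 0.0026). The subunits of that enzyme, Rabggta and Rabggtb, differed by 0.13 ± 0.13 and 0.03 ± 0.08, and Gdi2, a GDP dissociation inhibitor that extracts Rabs from membranes, by 0.01 ± 0.13.

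Sgsm1, a TBC protein known mainly from neurons, lay between -5.24 and -4.70 (median -4.90) in CUS and between -4.77 and -2.15 (median -2.93) in control, and fell by 1.87 ± 0.35 (3.65-fold, adjusted p = 0.001). Of the markers of neurons and Schwann cells, 2 of 7 rose and 4 fell, and their part in the values of Sgsm1 was not tested. Among Rab5 regulators of the list, the exchange factor Rabgef1 rose by 0.36 ± 0.11 (adjusted p = 0.019). Rin2 and Rin3, also exchange factors, differed by -0.09 ± 0.11 and 0.22 ± 0.13 and did not pass. The GTPase-activating protein Usp6nl fell by 0.86 ± 0.23 (adjusted p = 0.0092). With spike-in scaling Usp6nl differed by -0.03.

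**Figure D5:**
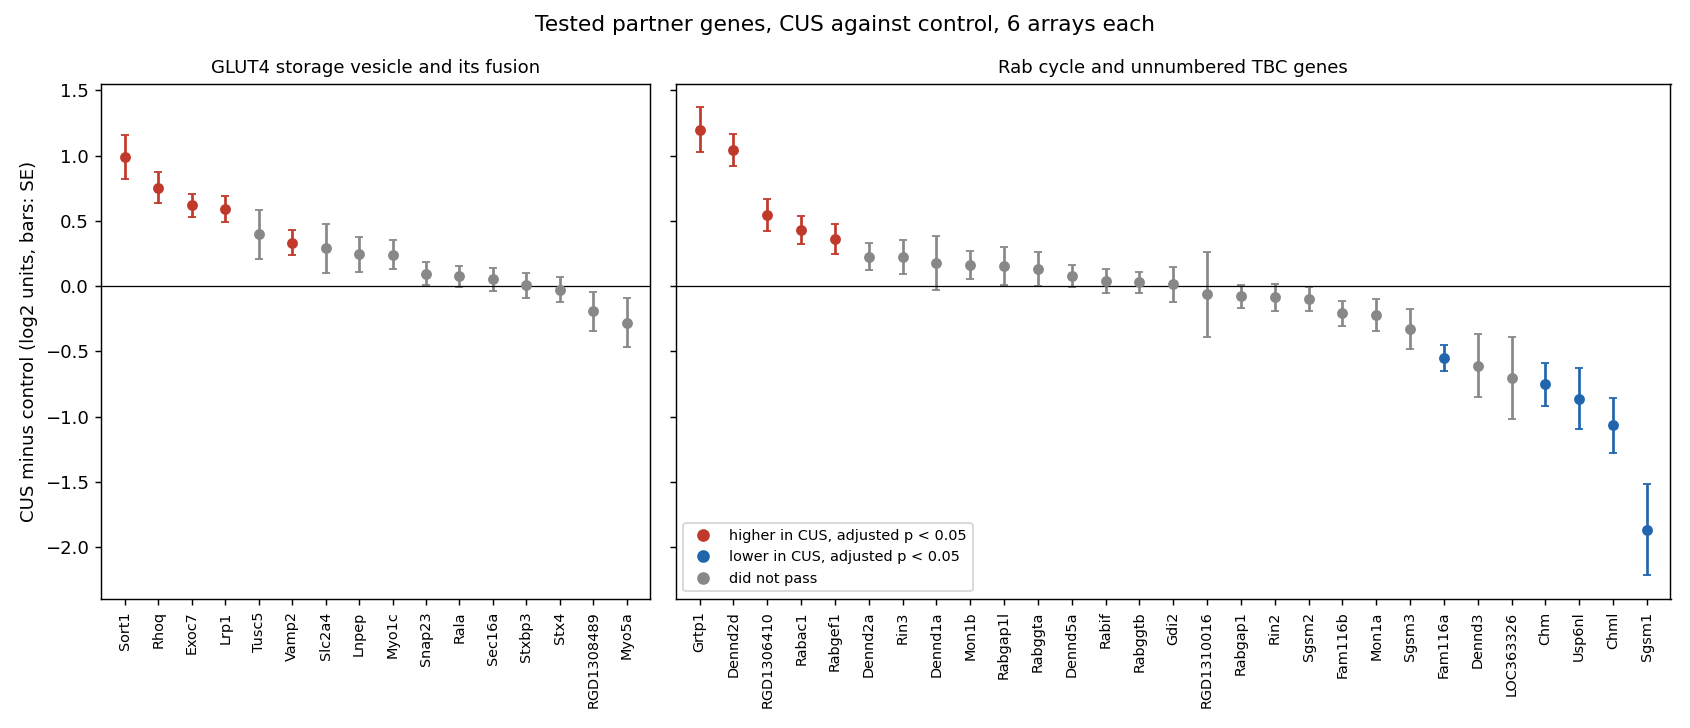
Difference between CUS and control (log2 units, vertical axis) of the 16 tested partners of GLUT4 vesicles (left) and of 29 of the 31 tested genes of the Rab cycle (right), with the SE of the fit as bars. In the left panel 5 genes rose and 0 fell, and in the right panel 5 of those drawn rose and 5 fell.

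The 15 members that were not tested were at or near background. In 6 of them (Rab3c, Rab9b, Rab25, Rab44, Tbc1d13 and Tbc1d21) no array was well above background. Tbc1d22a was well above background on 0 CUS arrays and 4 control arrays, with means of -6.44 in CUS and -4.71 in control. Its bound was 2.75-fold lower in CUS. Rab40c was well above background on 5 CUS arrays and 0 control arrays, with means of -5.28 in CUS and -5.81 in control. Its bound was 1.15-fold higher in CUS. These bounds set the mean of the brighter group against the dimmest signal that counted as well above background on each array of the other group, or the probe's own where that was higher.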

How the data were processed

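Total RNA was hybridised to 12 one-colour Agilent arrays (6 CUS, 6 control). The authors deposited spot intensities from Agilent Feature Extraction 10.7.3.1, with background and spatial trends already corrected and no normalization between arrays, and a table of quantile normalized intensities, used as an alternative. Although an exon array is named in the paper, the files come from gene expression arrays. Probe positions are those of the design on rat build rn4.

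Spots marked as outliers were dropped, replicate spots were averaged, and each log2 intensity was taken relative to the 75th percentile of 30367 noncontrol probes. Probes well above background on at least 6 arrays (19727) were compared with limma 3.58.1 (R 4.3.3), two-sided, with no covariate, since slide and group coincide. The fit was tested on simulated data. The replicate numbers were not taken to pair rats. Nothing states whether rats were littermates or RNA was prepared together, so p-values measure the spread between arrays. Precision is limited by how many arrays there are and, in dim probes, by the background, since 60.4% to 67.3% of probes were well above background.

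The rule for named genes took all GLUT4 traffic members, up to 8 rises and 8 falls among called members without overlap, and up to 4 called genes of each partner list. All other genes were named after their values were seen. Members, roles and lists were chosen with earlier results of these data known. Alternatives covered normalization, background correction, filter, probe choice, variance model, array weights, blocking and each array left out. Some genes of the Rab cycle list, included in its counts, are not reported here by name. All 83 members matched a RefSeq symbol, 3 under a newer name. Another 8 probes whose accessions now belong to numbered Rab or Tbc1d genes carry other names in the files and were not used.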

Additional observations from a re-analysis of the deposited data

Results flagged for a closer look

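Dixon's ratio, the gap of the highest or lowest array to its neighbour over the range of its group, was computed for 40 combinations of a named member and a group, and 3 exceeded the 95% limit for 6 arrays, where chance alone would pass about 1 in 20. The level of Rab28 was lowest on CUS replicate 1 (3.57, next 3.73) and highest in control on replicate 3 (3.78, next 3.4). The level of Rab3il1 was highest in CUS on replicate 6 (-1.51, next -1.98).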

How the results depend on the processing

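The counts followed through the alternatives were members called higher (17), lower (7) and at a fold of 2 (5), and called partners of GLUT4 vesicles (5) and of the Rab cycle (11). With spike-in scaling they were 53, 0, 22, 14 and 23, and Rab10 (0.81), Rab11a (0.76), Rab13 (0.60), Rab24 (0.12), Rab31 (0.77), Rab4b (0.74), Rab5a (0.75), Rab6a (0.23) and Tbc1d1 (0.49) changed sign. The median of all genes was 0.80 on this scale. With normexp the falls numbered 20, the members at 2-fold 1 and the Rab cycle calls 18, and Rab10 (0.0524) and Rab31 (0.0196) changed sign. With no filter on dim probes 13 of 83 members fell, where 41.85% of all genes were lower. With array weights 13 fell, 3 passed 2-fold, and 11 and 17 partners passed, and Rab10 became 0.0729. In that setting 32.49% of all genes were higher and 34.19% lower. Rab4b became 0.0539 with quantile normalization and 0.0557 in the deposited table, and Rab5a 0.19 as a mean of its probes. The causes were not tested. Normexp also turned the called Rab30 (-0.21, which passed as a fall) and Tbc1d7 (-0.17, which did not pass).

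Leaving out each array in turn gave 13 to 22 higher, 6 to 11 lower, 2 to 5 at 2-fold, and 5 to 8 and 11 to 16 partners, and moved Rab10 between -0.0463 and 0.0362, Rab11a between -0.168 and 0.0181 and Rab31 between -0.137 and 0.0248. Over all genes, 20.97% to 29.09% were higher and 22.55% to 30.54% lower on these occasions. Of the 24 calls, 19 were kept on every occasion. With the replicate block, 16 members were higher and 9 lower (24.72% and 27.69% of all genes), and 23 of 24 calls were kept. Deviations of same-numbered arrays correlated between -0.20 and 0.44. With no value for differently numbered arrays beside them, these cannot decide whether the numbers are pairs. The numbers were not taken as pairs because the paper's methods name an unpaired t-test. The methods' t-test gave 2 members higher and 3 lower at their threshold of p and fold, also after Benjamini-Hochberg adjustment, and 15 and 7 with no fold. Signals near background limit Rab36, Rab15, Rab19, Tbc1d10c and the 15 untested members, and also the partners Sgsm1 and Chml.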
